A study of Homo sapiens with 6 samples.

Results

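ANKRD11 and ANKRD12 encode a pair of large nuclear ankyrin repeat proteins, and they are the 2 members described here, taken from 13721 gene names by their exact names in the isoform annotation deposited for U-87 MG cells. U-87 MG is an established human glioma line. The pair was chosen by a measured value, the number of listed final exons. Counted by distinct 5' edge, ANKRD11 had the most of any gene. That number is therefore a description and has no test. The annotation was made for 6 libraries of poly(A)-selected RNA together. In 3 of them the cells were exposed for 72 h to EPZ015666 at 10 uM. This compound inhibits PRMT5, an enzyme that methylates arginines of splicing and other proteins. In the other 3 they were given the vehicle, DMSO, at 10 ul per 10 ml of medium for the same time. The labels do not say whether the libraries came from separate cultures, and all groups are the same cell line.

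By its name the annotation covers DI and consensus coding isoforms, and the name does not spell out DI. Rows of both kinds were read alike here, so a listed exon may come from either kind. The annotation holds exon positions in hg19 and 0 columns of values per library. No expression level, depth or replicate spread can therefore be given for either gene, and EPZ015666 was not compared with DMSO. Whether a listed isoform was present in EPZ015666 cells, in DMSO cells or in both is not marked. As a check of the label, VIM, CD44, NES and TNC, which are expressed by many glioma lines, were all listed. So were 3 of 3 neuron markers and 1 of 3 myeloid markers, with 0 of 2 endothelial markers. A listing is not a level, and its part in the cell identity was not tested.

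The ankyrin repeat is a short helical fold that stacks into a surface for binding other proteins. ANKRD11 and ANKRD12 bind p160 coactivators of nuclear receptors and recruit histone deacetylases, and each carries most of its protein in a single very long exon. In ANKRD11, repression and activation regions lie in that part and toward the C terminus, where degradation signals have also been described. Loss of 1 ANKRD11 copy causes KBG syndrome, a disorder of teeth, skeleton and brain development.

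ANKRD11 lay on the minus strand of chromosome 16 (89337225 to 89556969) and ANKRD12 on the plus strand of chromosome 18 (9136752 to 9285983). ANKRD11 had 148 exon rows, which gave 14 distinct isoforms. ANKRD12 had 41 rows, which gave 2 distinct isoforms, the longer of them listed in duplicate. Of consecutive rows that overlapped only the later was kept, so in both genes the isoforms hold fewer exons than there are rows. The ANKRD11 isoform with the most introns had 18 exons and 17 introns, against 15 exons and 14 introns for ANKRD12. Its span was 219745 bases, against 149232 bases for ANKRD12, and introns took up 92.2% of it in ANKRD11 and 92.3% in ANKRD12. Both genes had their longest intron first, of 58918 bases in ANKRD11 and 45416 bases in ANKRD12. In ANKRD11 introns of 12887, 56603 and 44416 bases followed, so its first 4 introns hold most of the gene. The median intron was 3343 bases in ANKRD11 and 4962 bases in ANKRD12, and the shortest was 135 bases in ANKRD11 and 1296 bases in ANKRD12. Each gene had 1 listed first exon, so every isoform of a gene starts at the same base and the isoforms differ toward the 3' end.

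The pair differ in where their early ends lie. In ANKRD11, 13 of 14 isoforms ended before the exons that encode the ankyrin repeats. In ANKRD12, the early isoform held the ankyrin exons and the whole long exon and ended just after it. Counted by acceptor, which is the 5' edge of the last exon, ANKRD11 had 14 final exons and ANKRD12 had 2. Over all 12462 genes with introns, 22.3% had 2 or more final exon acceptors and 0.00802% had 14 or more, which is ANKRD11 alone, and the next genes had 10. ANKRD11 was chosen for that number, and nothing is read from it.

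**Figure D1:**
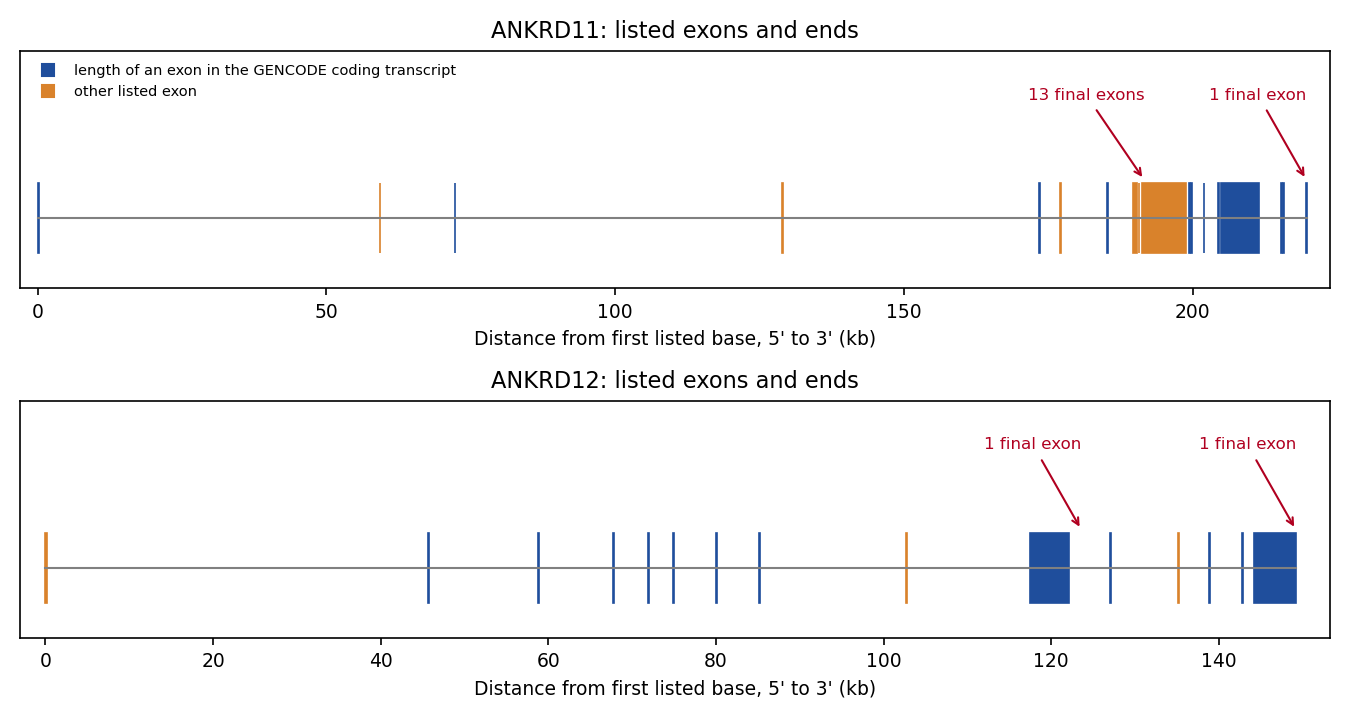
Listed exons of ANKRD11 (upper) and ANKRD12 (lower), drawn to scale by distance from the first listed base in kb, with a thin outline that keeps short exons visible. Blue boxes have the length of an exon in the GENCODE coding transcript and orange boxes do not, and arrows mark the listed ends with the number of final exons at each. The 13 early final exons of ANKRD11 end upstream of its 6578-base exon, and the early end of ANKRD12 lies downstream of its 4721-base exon.

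The 14 final exons of ANKRD11 had only 2 listed ends. One final exon, of 93 bases, ended the longest isoform (chromosome 16, 89337225 to 89337317). The other 13 all ended at base 89365285 and differed only in their acceptor. Of these, the longest was 6468 bases and began at the acceptor of the internal 139-base exon (89371614 to 89371752), so it ran from that exon straight into the intron. All 13 lay upstream of the 6578-base coding exon (89345480 to 89352057). The other 12 had acceptors between 89366172 and 89365735, within 437 bases, and were 888, 780, 775, 735, 730, 591, 586, 546, 541, 501, 496 and 451 bases long. Their isoforms were identical through the ninth exon and had spliced lengths of 2439 to 2876 bases. In the longest isoform this stretch is the ninth intron, of 477 bases (89365736 to 89366212). It holds 11 of the 12 acceptors, and the last, 89365735, is the acceptor of the tenth exon. No other listed intron of that isoform held a final exon acceptor. Joined where they overlap on the genome, the 14 final exons were 2, the same number as in ANKRD12.

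The acceptors were spaced in a regular way. Of 11 gaps between neighbouring acceptors, 5 were 5 bases and 3 were 40 bases, which sum to 45. The remaining gaps were 108, 139 and 45 bases. The same stretch is present in GENCODE v29 as the final exon of a short coding transcript, ANKRD11-214, so its sequence could be read. In both annotations the 139-base exon lies 14022 bases from the next coding exon, and the 721-base exon listed after it starts at the same distance, 4244 bases, as the final exon of ANKRD11-214. Distances from the shared exon were therefore used to place the acceptors in the 2095-base GENCODE exon. All 12 acceptors then followed an AG, the dinucleotide at the 3' end of nearly all introns. They lie in copies of a repeat, described below, so these are not 12 independent checks.

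The windows below show 4 of these acceptors, each as the 20 bases before it and the 8 bases after it, because the repeated letters are what the acceptors share. Each name gives the hg19 position of the acceptor. Capitals mark an AG that directly precedes a listed acceptor. The sequences are from GENCODE v29 (GRCh38, minus strand), where the first window is chr16:89299757-89299784 and the last is chr16:89299370-89299397.
89366172: accccacgcaccccacacAGggcaggca
89366064: accccacgcaccccacacAGggcAGgca
89365875: accccacacaccccacacAGggcAGgca
89365785: accccacacaccccacacAGggcAGgca
The windows at 89366172 and 89366064 hold the same 28 letters, as do those at 89365875 and 89365785. In 3 of the windows both AG dinucleotides precede a listed acceptor, 5 bases apart. At 89366172 only the first does, although the letters are the same as at 89366064.

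The stretch is a tandem repeat with a unit of 45 bases. In a window from 100 bases before the first of the 12 acceptors to 50 bases after the last, 84.5% of 542 bases equalled the base 45 positions further on, the highest share among shifts of 2 to 160 bases. The 12-base motif CACACAGGGCAG occurred 18 times in the 2095-base exon, and 6 acceptors followed its first 7 bases while the other 6 followed the whole motif. It was chosen after the sequence was seen, as the 12-base stretch found directly before more of the acceptors than any other, 6 of 12. On either strand it occurred in 0.12% of 206694 GENCODE transcripts. Exactly 1 transcript held 5 or more copies (0.000484%), and it is ANKRD11-214. The 12 bases before the other acceptors were CACCCCACACAG at 4 of them and CATCCCACACAG at 2. Of these, CACCCCACACAG occurred 26 times in the exon, and the 2 transcripts with 5 or more copies of it were both of ANKRD11. The acceptor of the 50-base exon that precedes the ladder also followed the first 7 bases of the motif, and the listed 721- and 50-base exons were each followed by GT, the usual 5' end of an intron. How reads from such a repeat were assigned was not tested, and 12 acceptors in a repeat cannot be told apart here from fewer acceptors placed at several copies.

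**Figure D2:**
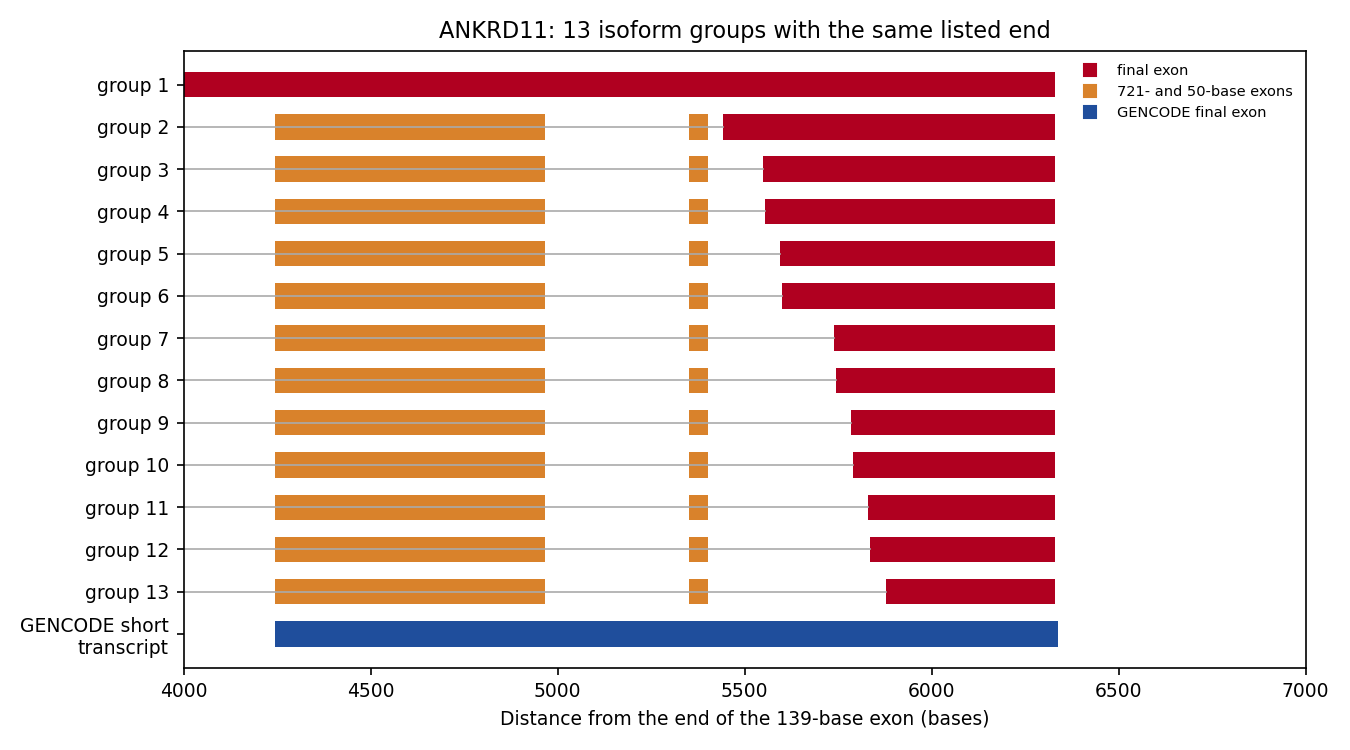
The 13 ANKRD11 isoform groups with the same listed end, by distance in bases from the end of the 139-base exon, with the final exon of the GENCODE short transcript ANKRD11-214 in blue. Final exons are red and the 721- and 50-base exons that precede 12 of them are orange, and the final exon of group 1 continues to the left of the plot. The red boxes end together at 6329 bases and start between 5442 and 5879 bases in groups 2 to 13.

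**Figure D3:**
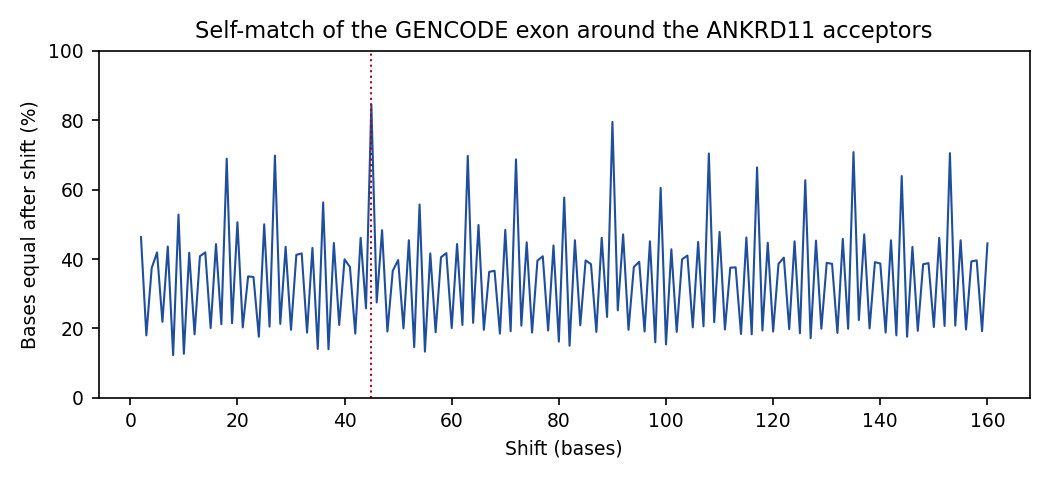
Share of bases (%) in the acceptor stretch that equal the base a given number of positions further on, by shift in bases from 2 to 160. The highest value, 84.5%, is at a shift of 45 bases, marked by the dotted line.

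The shared early end of ANKRD11 lies near a known transcript end. Base 89365285 is 6329 bases from the 139-base exon, and ANKRD11-214 ends 9 bases further on. The last 30 bases before the listed end, from the same GENCODE exon (chr16:89298877-89298906, GRCh38, minus strand), hold AATAAA, the most common signal for cleavage and polyadenylation, here in capitals.
89365285: aaagcacgtcaaAATAAAatattttcacat
The signal ends 12 bases before the listed end. In the last 50 bases of GENCODE coding transcripts, AATAAA occurred in 35.5% of 83129. No transcript was left out for an incomplete 3' end, so this is not the share among complete ends. The end falls 45.1% of the way into the 14022-base intron between the coding exons of 139 and 171 bases. Whether it is used for cleavage in these cells was not tested.

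Against the other genes, the number of acceptors on the early end of ANKRD11 stood alone. It had 13 acceptors that share 1 listed end, against 1 for ANKRD12. Over all genes, 11.4% had 2 or more acceptors sharing an end, 0.0722% (9 genes) had 5 or more and 0.00802% had 13 or more. The other 8 genes with 5 were PPP2R5C, AL589743.1, HDAC8, RP11-383H13.1, AAK1, ANKRD30B, C19orf25 and RNFT2. In those 8 the acceptors were spread over 5562 to 78989 bases. The 13 of ANKRD11 were spread over 6017 bases, a value inside that range, and 12 of them over 437 bases. Within any 500 bases, ANKRD11 had 12 acceptors with the same end and ANKRD12 had 1. The next highest gene had 4, and 0.473% of genes had 3 or more. These measures come from the same final exons that chose the gene, so they describe it and were not tested.

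**Figure D4:**
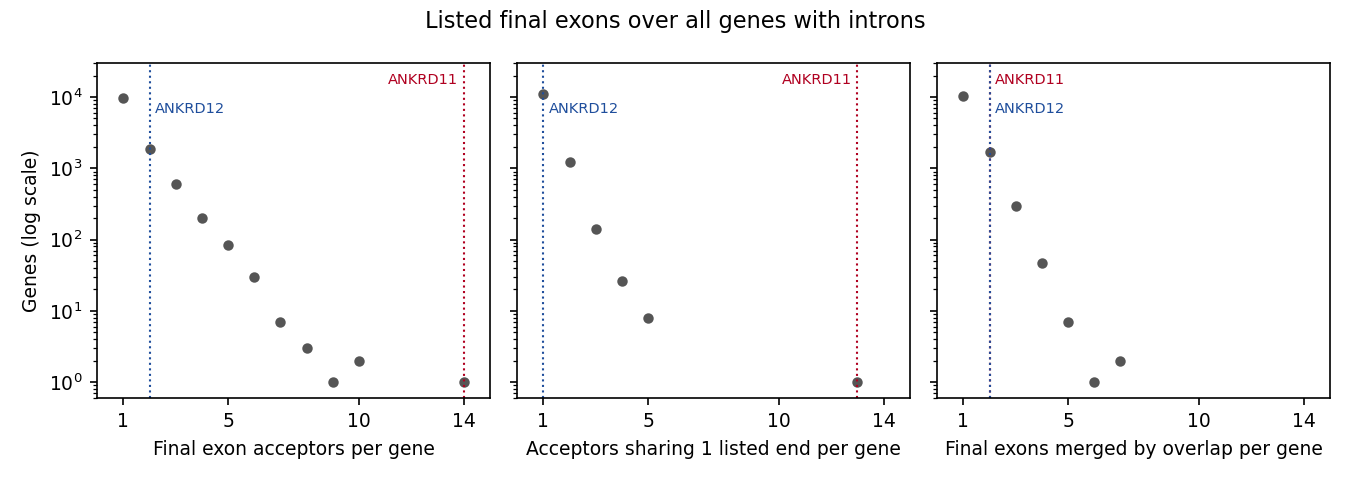
Number of genes (log scale) by final exon acceptors, by the largest number of acceptors that share 1 listed end, and by final exons merged where they overlap, over 12462 genes with introns. Dotted lines mark ANKRD11 at 14, 13 and 2, and ANKRD12 at 2, 1 and 2, so the genes are apart in the left and middle panels and together in the right panel.

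The early end of ANKRD12 was of another form. Its final exon (chromosome 18, 9254209 to 9260388) was 6180 bases long and shared its acceptor with the 4721-base exon, so it kept all of that exon and ran 1459 bases into the 4858-base intron after it. ANKRD11 also had such an extended exon, the 6468-base one, which extends the 139-base exon. Among all genes, 16.4% had a final exon that extends an internal exon from the same acceptor. The other ANKRD12 isoform ended in a 5045-base exon (9280939 to 9285983), the length of the last exon of its main GENCODE coding transcript. ANKRD11 reached no such end. Its longest isoform stopped at the 93-base exon and lacked the last exon of the main transcript, which holds the final 183 coding bases, for 61 residues. The last listed intron was the last intron of a GENCODE transcript in ANKRD12 and not in ANKRD11, and in 72.4% of 10569 matched genes with 3 or more introns.

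Measured along the coding exons of the main transcripts, the early ends lie at very different points. The spans below count coding bases of those transcripts and are not proteins of the listed isoforms. Every listed isoform also holds an exon, described below, in which the reading frame of a GENCODE transcript stops ahead of the early end. The main GENCODE coding transcripts encode 2663 residues for ANKRD11 and 2062 for ANKRD12. The coding exons listed before the early ends of ANKRD11 carry 226 coding bases, or 75 whole codons, which is 2.83% of the protein and includes no exon with the ankyrin signature tetrapeptide. Those of ANKRD12 carry 5664 coding bases, or 1888 codons, which is 91.6%. The exons listed after the early end of ANKRD12 are of 99, 71, 144, 96 and 5045 bases, and coding sequence of the main transcript lies in 4 of them, with 183 coding bases in the last. GENCODE gives ANKRD11-214 itself 372 coding bases, or 124 codons, the last 146 bases of them in its final exon and thus inside the listed 721-base exon.

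Identity between the paralogs was uneven along the protein. Of 11 blocks of coding exons in the same order, 6 had equal lengths in both genes. The signature tetrapeptide of ankyrin repeats, threonine-proline-leucine-histidine, occurred in the translated ANKRD11 transcript at residue 236 and in ANKRD12 at residues 187, 220 and 253, which are 33 residues apart. The block of 143 coding bases holds the ANKRD11 copy and the last 2 of ANKRD12. The remaining ANKRD12 copy lies in the block before it, of 204 coding bases in ANKRD11 and 201 in ANKRD12. In these 2 blocks, chosen by the tetrapeptide alone, 86 of 115 aligned residues were identical (74.8%), against 45.2% of 1773 in all other blocks. The block of 148 coding bases that follows holds no such tetrapeptide, and ankyrin repeats without it were not searched for. A unit of 33 residues from the last tetrapeptide, at 236 or 253, would run past the end of its block, at 248 or 265. It would reach into the block of 148 coding bases, so the 74.8% may not cover the whole ankyrin part. Identity in the block of 148 coding bases was 44.9%, the next to lowest of the 11 blocks. In the long exon, of 6578 coding bases in ANKRD11 and 4721 in ANKRD12, 572 of 1430 aligned residues were identical. In the 4 blocks after it, 136 of 173 were (78.6%). The early ends of ANKRD11 thus lie ahead of the blocks with the tetrapeptide, and the early end of ANKRD12 lies ahead of the 4 C-terminal blocks.

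**Figure D5:**
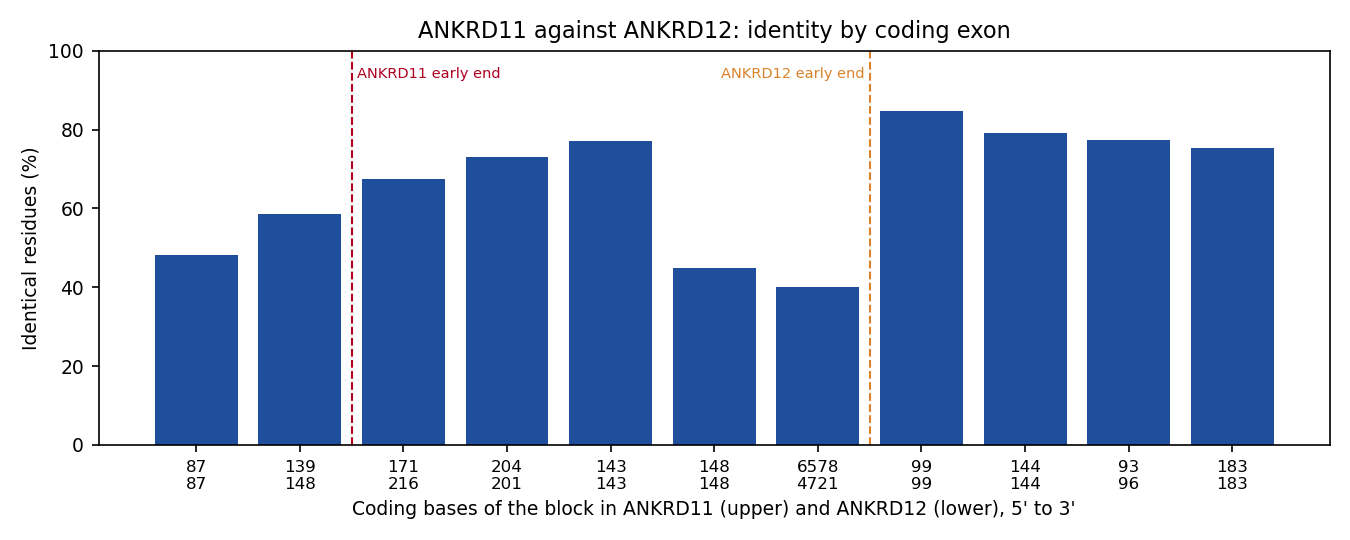
Identical residues (%) between ANKRD11 and ANKRD12 by coding exon block, from 5' to 3', with the coding bases of each block in ANKRD11 above those in ANKRD12 on the axis. Dashed lines mark where the listed early ends of ANKRD11 and of ANKRD12 fall. Identity was lowest in the block of 6578 and 4721 coding bases, with 572 of 1430 residues, and highest in the block of 99 coding bases after it, at 84.8%.

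The exons below are 4 pairs of equal length, shown because the early ends separate them from the exons upstream. The exons of 143 and 148 bases follow the early ends of ANKRD11, and those of 99 and 144 bases follow the early ends of both genes. The sequences are coding strand from GENCODE v29 (GRCh38), and capitals mark the bases that differ between the paralogs. In the pair of 143 bases, with the ANKRD11 exon at chr16:89288528-89288670 on the minus strand and the ANKRD12 exon at chr18:9216758-9216900 on the plus strand, 63.6% of bases were equal.
ANKRD11, 143 bases: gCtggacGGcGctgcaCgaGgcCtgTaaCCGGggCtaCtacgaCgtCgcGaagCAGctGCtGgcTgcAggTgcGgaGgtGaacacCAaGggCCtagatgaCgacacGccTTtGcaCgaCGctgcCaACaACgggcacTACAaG
ANKRD12, 143 bases: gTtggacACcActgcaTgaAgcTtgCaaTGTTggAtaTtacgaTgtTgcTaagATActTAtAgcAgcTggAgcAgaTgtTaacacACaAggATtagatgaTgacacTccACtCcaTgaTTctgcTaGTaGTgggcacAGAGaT
In the pair of 148 bases (chr16:89286039-89286186 and chr18:9221852-9221999) 74 of 148 bases were equal, the lowest share of the 6 pairs of equal length.
ANKRD11, 148 bases: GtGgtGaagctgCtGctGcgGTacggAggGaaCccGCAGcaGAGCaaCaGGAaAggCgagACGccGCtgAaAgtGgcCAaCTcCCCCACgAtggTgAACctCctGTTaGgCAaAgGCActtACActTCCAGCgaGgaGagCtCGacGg
ANKRD12, 148 bases: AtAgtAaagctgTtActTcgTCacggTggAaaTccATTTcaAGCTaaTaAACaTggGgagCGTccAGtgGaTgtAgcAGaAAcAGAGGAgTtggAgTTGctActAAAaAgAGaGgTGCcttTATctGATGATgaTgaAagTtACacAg
In the pair of 99 bases (chr16:89275093-89275191 and chr18:9263790-9263888) 65.7% were equal.
ANKRD11, 99 bases: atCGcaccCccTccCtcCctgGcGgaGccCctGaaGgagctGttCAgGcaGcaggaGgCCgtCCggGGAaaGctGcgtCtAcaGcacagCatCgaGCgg
ANKRD12, 99 bases: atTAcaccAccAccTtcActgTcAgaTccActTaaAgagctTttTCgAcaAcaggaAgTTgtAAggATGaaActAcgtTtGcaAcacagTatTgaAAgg
In the pair of 144 bases (chr16:89274814-89274957 and chr18:9275524-9275667) 66.0% were equal.
ANKRD11, 144 bases: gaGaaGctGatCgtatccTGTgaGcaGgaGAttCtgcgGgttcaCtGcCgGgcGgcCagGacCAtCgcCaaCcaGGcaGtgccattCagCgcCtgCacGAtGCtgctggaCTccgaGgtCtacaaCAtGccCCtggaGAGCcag
ANKRD12, 144 bases: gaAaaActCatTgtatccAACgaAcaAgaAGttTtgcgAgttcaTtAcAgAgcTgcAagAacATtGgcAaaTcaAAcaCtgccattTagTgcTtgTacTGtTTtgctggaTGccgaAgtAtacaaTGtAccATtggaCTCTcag
The capitals are scattered through all 4 pairs, which were picked for their equal length. In residues, identity was 77.1%, 44.9%, 84.8% and 79.2% in the blocks of 143, 148, 99 and 144 bases.

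Neither gene had a listed isoform equal to its coding transcript. The longest listed isoform held 12 of the 13 exon lengths of the main coding transcript in ANKRD11 and 12 of 13 in ANKRD12. Of the 12 introns of that transcript, 7 were listed in ANKRD11, against 10 of 12 in ANKRD12. Of the exons that hold coding sequence, 10 of 11 were listed in ANKRD11 and 12 of 12 in ANKRD12. The listed isoforms also held exons that are not in it, of 71, 186, 273, 721, 50 and 7647 bases in ANKRD11, and of 80 and 71 bases, with another first exon of 212 bases, in ANKRD12. The 273-base exon of ANKRD11 was in all 14 isoforms, and the 80-base exon of ANKRD12 was in both. With the same flanking introns, each of these occurs in 1 GENCODE transcript, which is labelled as a target of nonsense-mediated decay, the pathway that degrades mRNAs with an early stop codon. There the reading frame ends 18 bases into the 273-base exon of ANKRD11, after 35 codons. In ANKRD12 it ends 20 bases into the 80-base exon. No listed isoform of either gene leaves the exon out, so the coding spans given above hold for the exons listed and not for the isoforms as listed. A listed chain of 3 or more introns was found unbroken in a GENCODE transcript for 43.5% of 10569 matched genes, and for neither ANKRD11 nor ANKRD12.

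The 7647-base exon of ANKRD11 (89358089 to 89365735) was longer than its long coding exon. It began at the last acceptor of the ladder and covered the shared early end, which lies 451 bases inside it. Its donor gave an intron of 497 bases, which is present in 5 GENCODE transcripts, 0 of them coding. The 71-base exon of ANKRD11 occurs in 2 coding GENCODE transcripts and holds 0 coding bases there. The exons of 186, 721, 50 and 7647 bases in ANKRD11 and of 71 bases in ANKRD12 were not found there with the same flanking introns. Neither gene had a spanned intron, one also listed inside an exon that joins its neighbours edge to edge, against 4.18% of all genes. That measure leaves out introns inside a longer exon with other edges. The 6468-base final exon of ANKRD11 holds its whole introns of 4243, 387 and 477 bases. At least 50% of the intron was covered by a listed exon for 14 of 28 distinct introns of ANKRD11 and 0 of ANKRD12.

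Of 12 partners, corepressors, coactivators and deacetylases that bind the pair or act with it, 11 were listed with introns and 4 of these had 2 or more final exon acceptors, against 22.3% of all genes. The median was 1, as over all genes. Acceptors sharing an end were found in 0 of the 11, against 11.4% of all genes. NCOR1, the nuclear receptor corepressor, had 4, and the coactivator NCOA3 and the adaptor TADA3 had 2 each. HDAC3, HDAC4 and HDAC5, histone deacetylases, had 1 each, as did NCOA1, NCOA2, TBL1X and TBL1XR1. GPS2 was not listed.

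Other genes with names beginning ANKRD were close to the background. Of 44 other names beginning ANKRD, 10 had 2 or more acceptors, against 22.3% of all genes, with a median of 1 in both. The highest was ANKRD30B with 6, of which 5 share an end. Of 9 genes for large ankyrin proteins 8 were listed, and 3 had 2 or more acceptors, against 22.3% of all genes. ANK2 and ANK3, the ankyrins that anchor membrane proteins, had 3 each, and ANKRD44 had 2. ANKRD17, ANKRD26, ANKRD28, ANKRD50 and ANKRD52 had 1 each. Acceptors sharing an end were found in 2 of the 8, ANK2 and ANK3, against 11.4% of all genes.

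By number of final exons, introns that hold such an acceptor and spanned introns, the genes nearest to ANKRD11 over the annotation were KDM4C, ADAMTSL1, EVC, DDHD2 and GRIA3. They were still 7 or 8 counts away in sum. Merged by overlap, their final exons numbered 4 to 7, against 2 for ANKRD11. For ANKRD12, 1782 genes had the same 3 counts, and the first 5 by intron number and name included AGAP2, AGK, ANKRD13D and APBB1IP. No listed gene overlapped either member. The nearest listed neighbours were SPG7, 17836 bases away on the 5' side of ANKRD11, and RP11-21J18.1, 2412 bases away on the 5' side of ANKRD12.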

How the data were processed

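Per the labels' protocols, 6 poly(A)-selected RNA libraries of U-87 MG cells were sequenced, 3 with EPZ015666 and 3 with DMSO. Tools in the submitters' processing notes, with no role given, are RSEM, DESeq 1.10.1, bedtools 2.20.1, STAR 2.4.1d and Bowtie 1.0.1, with hg19 and GRCh37. The deposited file has 9 columns. Its only numbers are exon start and end positions, the strand is in column 6, and depth is unknown. The sources used here do not give how the authors assigned reads to repeats.

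Rows of a parent were split where the next exon lay wholly upstream. Of 2 overlapping consecutive exons the later was kept (10093 places). A name at several loci kept the locus with most rows. GENCODE 29 (GRCh38) was compared by lengths and by distances within a gene, never by position. The main transcript had the longest coding sequence. Proteins were translated from it and aligned with Biopython 1.88 (BLOSUM 62, gap open 10, extend 0.5). Residues are not printed, because no protein table was used here. Python 3.11.15 and numpy 2.4.6 were used. The structure counts were tested on simulated data, with 200 of 200 gene structures recovered. No test was run, since the file has no replicates. Members, lists, measures and named genes were chosen with earlier results of these data known. Named genes are the members, fixed partner and ankyrin lists, the 5 nearest genes and neighbours, of which 2 are not reported here. The 8 genes with 5 acceptors sharing an end were named after their values were seen.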

Additional observations from a re-analysis of the deposited data

How the results depend on the processing

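Of 36 alternatives, 20 kept their value within 1.5 times, or within the 95% Wilson interval of a share, and 16 did not. ANKRD11 had 14 final exons by acceptor, by both edges, with single-exon isoforms and with the earlier of overlapping exons kept. It had 2 when final exons were merged by overlap or counted by listed end, an alternative chosen after seeing the data. ANKRD12 had 2 under all of these. Placed by last base, introns holding an early final exon numbered 0 in ANKRD11 and 1 in ANKRD12, against 1 in ANKRD11 and 0 in ANKRD12 by acceptor, because the shared end of ANKRD11 lies inside the listed 7647-base exon. With at least 50% of an intron covered by any listed exon in place of a spanned intron, ANKRD11 had 14 of its 28 distinct introns and ANKRD12 had 0.

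The share of genes with at least as many final exons as ANKRD11 was 0.00802%. It was 0.0642% by both edges, 5.21% per 10 introns and 16.5% merged by overlap, the last chosen after seeing the data. For ANKRD12 it was 22.3%, and 28.9% among genes with at least 8 introns, 38.4% by both edges, 54.3% per 10 introns and 16.5% merged. Protein identity was 43.1% over the whole with gap open 12 and extend 1, and 43.1% over the shorter protein, against 47.0%. Outside the 2 blocks with the ankyrin tetrapeptide it was 41.1% and 41.2%, against 45.2%.

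No paired analysis was possible because 0 columns hold libraries. The number of libraries behind each isoform is unknown, and the repeat limits how firmly any single acceptor of ANKRD11 can be placed.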
